A study of Mus musculus with 12 samples.

Results

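The lysosome genes described here are the genes that the KEGG annotation of the expression table assigns to the mouse lysosome pathway, without Lamp3, Napsa and Ctsh, which mark type 2 alveolar epithelial (AT2) cells and were left out. The annotation named 123 genes, 120 of the 21878 genes in the table remained, and 110 of these had at least 1 FPKM (fragments scaled by transcript length and by all mapped fragments) in at least 3 samples and were tested. Lysosomes are acidic organelles in which hydrolases break down proteins, glycans, lipids and nucleic acids delivered by endocytosis, phagocytosis and autophagy. The vacuolar proton pump acidifies the lumen, mannose 6-phosphate tags and their receptors bring newly made hydrolases from the Golgi, and heavily glycosylated membrane proteins line the organelle. In AT2 cells the lamellar body that stores surfactant is a lysosome-related organelle, and Atg5, needed to lipidate LC3 on the growing autophagosome, acts upstream of the fusion of autophagosomes with lysosomes.

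Sorted AT2 cells from C57BL/6 mice gave 12 RNA samples, 3 in each of 4 groups. AT2-PBS and AT2-BLM cells came from Atg5 f/f mice, called wild type in the labels, 14 days after intratracheal PBS or 2 U/kg of bleomycin (BLM), which damages DNA and is used to injure alveoli. Atg5-/- AT2-PBS and Atg5-/- AT2-BLM cells came from Nkx2.1Cre;Atg5 f/f mice, in which Cre acts wherever Nkx2.1 was expressed in the lung epithelium, airways included. The day is also 14 for Atg5-/- AT2-BLM and is not named for Atg5-/- AT2-PBS. For BLM experiments the methods give male mice aged 8 to 12 weeks. The sort kept EpCAM+ cells without CD31, CD34, CD45, CD24 and Sca-1 at the surface. Nothing in the sources used here says that the 3 samples of a group were separate animals, so the p-values measure the spread between these samples, which may be technical.

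The tested lysosome genes were grouped by role into 23 genes of adaptor complexes and clathrin, 18 glycosidases, 13 proteases, 12 transporters and channels, 10 membrane glycoproteins, 10 proton pump subunits, 8 lipases and sphingolipid hydrolases with their activators, 7 sulfatases with their activator, 6 genes of mannose 6-phosphate tagging and sorting, and 3 nucleases and phosphatases. The role named glycosidases is broad and also holds glycan enzymes of other kinds, such as Aga, which splits off asparagine. Per length, Npc2, a soluble carrier that hands cholesterol to Npc1, had the highest mean FPKM of the lysosome genes and ranked 36 among all 10675 tested genes. Cd63, a tetraspanin of late endosomes and lysosomes, followed at rank 47, the carboxypeptidase Ctsz at 142, the proton pump subunit Atp6v0b at 211 and the aspartic protease Ctsd at 222. Together the 120 genes took between 1.09% and 1.33% of summed FPKM in AT2-PBS, between 1.21% and 1.64% in AT2-BLM, between 1.14% and 1.35% in Atg5-/- AT2-PBS and between 1.34% and 1.60% in Atg5-/- AT2-BLM. The 10 lysosome genes that were not tested were Ap1s3, Ap3b2, Ctsg, Ctsj, Ctsm, Ctsw, Psapl1, Dnase2b, Entpd4 and Arsg, and among them Ctsm was listed at 0 in every sample.

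The TFEB family of transcription factors is known to bind an element with the core TCACGTG in promoters of lysosome genes. Matching sequences are shown as a feature that the choice of the genes did not use. Since the element is known from such promoters, a higher share among lysosome genes is not a new finding. RefSeq promoter windows of GRCm38.p6, from 250 bases before to 50 bases after the transcription start, matched 96 of the 120 genes in 114 windows. TCACGTG was searched on both strands and lay in a window of 21 of the 96 genes (21.9%), of 4.29% of all 27025 genes with a window, and of 7.03% of the 8284 tested genes with one. The shorter letters CACGTG, which TCACGTG contains, lay in windows of 24.0% of the lysosome genes, of 8.09% of all genes and of 11.8% of tested genes. By role, the letters TCACGTG were held by 3 of 4 genes of mannose 6-phosphate tagging, 3 of 6 sulfatase genes, 4 of 13 glycosidases and 3 of 14 proteases. They were held by 2 of 7 pump subunits, 2 of 9 membrane glycoproteins, 2 of 9 transporters and 2 of 22 adaptor genes. None of 8 lipid genes and none of 4 nucleases and phosphatases held them. Stretches before the start are given for 5 of the 8 genes that held the letters and were called higher after BLM in Atg5 f/f cells, 5′ to 3′ on the strand of the gene, with capitals for the match, which reads TCACGTGA where both strands match.
Gla, chrX:134601178-134601215, minus strand: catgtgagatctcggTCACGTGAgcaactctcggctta
Gla, chrX:134601211-134601248, minus strand: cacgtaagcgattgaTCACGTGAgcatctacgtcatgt
Ctsd, chr7:142387904-142387941, minus strand: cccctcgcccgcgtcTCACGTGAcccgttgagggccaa
Lgmn, chr12:102439121-102439157, minus strand: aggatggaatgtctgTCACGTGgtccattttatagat
Mcoln1, chr8:3500432-3500468, plus strand: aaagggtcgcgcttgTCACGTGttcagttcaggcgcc
Mcoln1, chr8:3500458-3500495, plus strand: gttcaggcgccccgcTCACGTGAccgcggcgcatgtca
Naglu, chr11:101070005-101070041, plus strand: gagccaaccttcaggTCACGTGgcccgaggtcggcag
Ctsa, Nagpa and Sumf1 were the other 3, and Arsa, which also held the letters, was lower. After BLM in Atg5 f/f cells, 8 of the 21 tested genes with the letters were called higher (38.1%, median log2 change 0.28), against 22 of the 67 without them (32.8%, median 0.38). With Atg5 loss in PBS-treated mice these counts were 5 of 21 (23.8%, median 0.18) and 19 of 67 (28.4%, median 0.10). A match is a description of the letters in the window and not of binding.

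Some libraries stood apart in ways that the groups do not explain. The pancreatic gene Ins2 was at 1976 FPKM in AT2-PBS replicate 1, at 1949 and 2003 FPKM in replicates 1 and 2 of Atg5-/- AT2-PBS, and at 3.86 FPKM or less in the other 9. The Y-linked gene Ddx3y was above 4 FPKM in 5 of the 12 libraries (2 of AT2-PBS, 1 of AT2-BLM, 2 of Atg5-/- AT2-BLM and 0 of Atg5-/- AT2-PBS), although the methods give male mice. Sftpc, the defining AT2 transcript, was listed at 0 in 11 of the 12 libraries, which can be a failed estimate, and other surfactant genes were not. Atg5 itself was not called in either comparison of the genotypes (log2 change -0.14, SE 0.23 with PBS and -0.26, SE 0.23 during BLM), so the FPKM of the whole gene do not show the deletion. Summed FPKM of 12 pan-leukocyte markers were 80.1 to 139 in AT2-PBS, 114 to 215 in AT2-BLM, 863 to 1109 in Atg5-/- AT2-PBS and 141 to 321 in Atg5-/- AT2-BLM, although the sort removed CD45+ cells. The 13 alveolar macrophage markers, of which Cd68 and Atp6v0d2 are also lysosome genes, summed to 28.7 to 75.8, 81.9 to 172, 1161 to 1579 and 66.5 to 253 in the same order. Marker sums of airway cells (23472 to 85111 in Atg5-/- AT2-PBS against 11851 or less elsewhere) and of liver genes (1933 to 3348 against 1185 or less) were also highest in Atg5-/- AT2-PBS. In sorted bulk RNA, fewer cells of a type and less RNA per cell cannot be told apart.

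**Figure D1:**
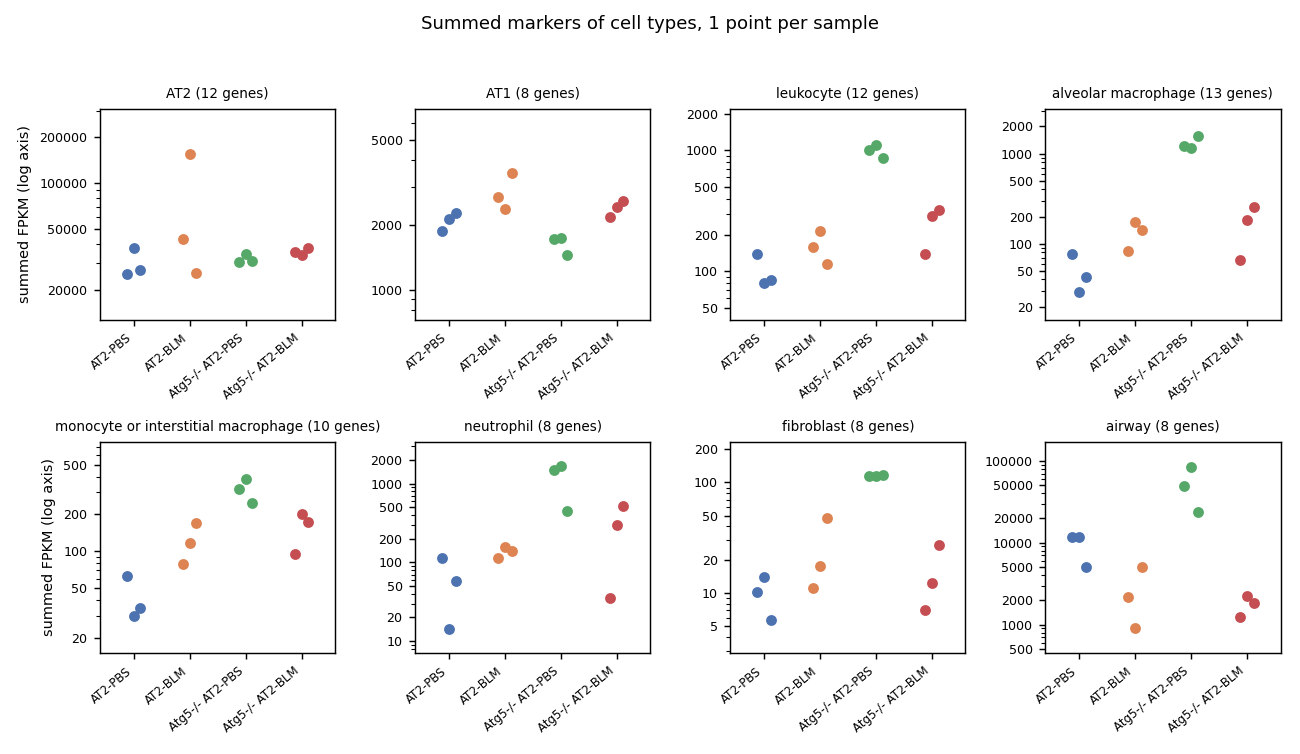
Summed FPKM of 8 marker lists (logarithmic axis) are plotted for each of the 12 samples, with 3 points per group. The leukocyte, alveolar macrophage, monocyte or interstitial macrophage, neutrophil, fibroblast and airway sums were higher in all 3 Atg5-/- AT2-PBS samples than in the AT2-PBS samples.

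BLM injury in Atg5 f/f cells was compared with PBS at day 14. More lysosome genes rose than fell: 39 of 110 were called higher and 3 lower, where a call needed an unadjusted p under 0.05 and at least a 1.4-fold change in the limma fit of log2(FPKM + 1) over all tested genes. Among all tested genes 20.6% were called higher and 7.77% lower. With a Benjamini-Hochberg adjusted p under 0.05, 28 lysosome genes were higher and 1 was lower, and 13.1% of all tested genes were higher. The median log2 change of the lysosome genes was 0.37 against 0.17 for all tested genes. Fold changes on this scale understate the change of genes with low FPKM.

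Of the proteases, which cleave proteins delivered to the lumen, 7 of 13 were called higher and none lower, all 7 also after adjustment. Ctss, a cysteine protease that trims the invariant chain of MHC class II in antigen-presenting cells (chr3:95330708-95360325 of mm9, GENCODE annotation), was at 12.7, 1.73 and 5.78 FPKM in AT2-PBS and at 28.7, 51.5 and 18.7 FPKM in AT2-BLM. The ranges did not overlap, and the rise was 4.95-fold (log2 change 2.31, SE 0.70, limma adjusted p = 0.0423). Ctsd was at 171, 137 and 166 FPKM with PBS and at 279.7, 318 and 355 FPKM with BLM, a 2-fold rise without overlap (log2 change 1.00, SE 0.17, limma adjusted p = 0.00376). For Ctsb, a broadly expressed cysteine protease, the levels were 125, 114 and 125 FPKM and then 219.5, 258 and 204 FPKM (1.86-fold, limma adjusted p = 0.00369). These 2 abundant proteases varied less between replicates than Ctss did. Smaller rises were called for Ctsz (1.68-fold), for legumain (Lgmn, 1.64-fold), which activates cathepsins by cleaving them after asparagine, for Ctsa (1.59-fold), which shields sialidase from degradation, and for tripeptidyl peptidase Tpp1 (1.58-fold). Ctsc was at 118, 149.5 and 128 FPKM with PBS and at 183, 183 and 69.6 FPKM with BLM and was not called, its replicate 3 with BLM lying below every PBS sample.

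Positive changes were common in this comparison, in 6810 of the 10675 tested genes. Proton pump subunits had them in 10 of 10 cases, and 5 were called higher, 4 of them after adjustment, with a median log2 change of 0.66. Tcirg1, a membrane subunit that serves lysosomes and the osteoclast ruffled border, was at 3.78, 3.81 and 4.03 FPKM with PBS and at 6.82, 7.24 and 7.91 FPKM with BLM. Every BLM sample lay above every PBS sample (1.71-fold, SE of the log2 change 0.14, limma adjusted p = 0.00506). Atp6v0a1, another form of the same subunit, was at 36.3, 27.8 and 32.3 FPKM and then at 43.9, 48.3 and 70 FPKM (1.64-fold, limma adjusted p = 0.022). Atp6v0a4, the form known from kidney, was at 0.695, 0.837 and 0.101 FPKM with PBS and at 1.47, 1.77 and 6.73 FPKM with BLM. Its rise (log2 change 1.32, SE 0.44, limma adjusted p = 0.0577) leaned on 1 high sample, since it was 0.79 and no longer called without AT2-BLM replicate 3.

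Among the glycosidases 6 of 18 were higher, all 6 after adjustment, and 17 of 18 changes were positive. Sialidase Neu1, which removes terminal sialic acid, was at 11.2, 12.8 and 12.2 FPKM with PBS and at 22, 22.1 and 26.7 FPKM with BLM (1.88-fold, limma adjusted p = 0.00208). Alpha-galactosidase A (Gla), which clears globotriaosylceramide, was at 1.6, 0.521 and 1.5 FPKM with PBS and at 2.68, 3.36 and 5.24 FPKM with BLM (2.16-fold, limma adjusted p = 0.0119). In both genes the groups did not overlap. Of the 8 lipid genes 4 were higher, and all 8 changes were positive. Psap, the precursor of the saposins that present sphingolipids to their hydrolases, was at 25.8, 17.1 and 15.7 FPKM with PBS and at 36.3, 43.5 and 55.3 FPKM with BLM (2.26-fold, limma adjusted p = 0.011), without overlap, and it was the only lipid gene that passed the adjustment. Lipa, the acid lipase that splits cholesteryl esters and triglycerides, was near 0 with PBS (1.53, 0.277 and 0.28 FPKM) and at 1.99, 3.15 and 2.46 FPKM with BLM. Its log2 change of 1.12 (SE 0.41, limma adjusted p = 0.0783) was 0.96 and not called without AT2-PBS replicate 2 or 3, and 1.00 and not called without AT2-BLM replicate 2. Acid ceramidase (Asah1) was at 49.8, 47.2 and 47.3 FPKM and then at 58.4, 63.8 and 85.6 FPKM, a 1.41-fold rise that was not called without AT2-PBS replicate 2 (log2 change 0.48) or replicate 3 of AT2-BLM (0.34).

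Of the 10 membrane glycoproteins 3 were higher (30%, against 20.6% of all tested genes), 1 of them after adjustment. Cd68, the macrosialin of macrophages (chr11:69477715-69479655), was at 11, 5.26 and 9.12 FPKM with PBS and at 30.8, 41.4 and 16.2 FPKM with BLM (3.12-fold, log2 change 1.64, SE 0.35, limma adjusted p = 0.0103). Laptm5, a transmembrane protein of hematopoietic cells, was at 7.72, 1.45 and 1.22 FPKM and then at 5.39, 12.7 and 6.1 FPKM. Its groups overlapped, its log2 change was 1.24 (SE 0.55, limma adjusted p = 0.139), and the call was lost without AT2-PBS replicate 2 (0.95) or 3 (0.88) and likewise, in AT2-BLM, without replicate 2 (0.89) or 3 (1.37). Cd63 was at 623, 434 and 773 FPKM with PBS and at 926, 945 and 1036 FPKM with BLM (1.63-fold, limma adjusted p = 0.0716), a call lost without AT2-PBS replicate 2 (log2 change 0.48). Lamp1 and Lamp2, the main membrane proteins, were not called. Lamp2 was at 52.9, 52.9 and 50.8 FPKM and then at 58.3, 64.5 and 70.8 FPKM (log2 change 0.30, 95% interval -0.02 to 0.61). Lamp1 was at 48.2, 104 and 454 FPKM with PBS, where 1 sample stood far above the others, and at 31.5, 35.1 and 106 FPKM with BLM (log2 change -1.41, 95% interval -2.96 to 0.13). Without that high sample, AT2-PBS replicate 3, its log2 change was -0.53.

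The phosphatase Acp5, the tartrate-resistant acid phosphatase of osteoclasts and macrophages, was at 3.09, 1.81 and 2.71 FPKM with PBS and at 5.23, 7.49 and 4.73 FPKM with BLM (1.92-fold, limma adjusted p = 0.0128). Among the sulfatases Galns, Ids and Sumf1, the enzyme that activates all sulfatases, were higher, but the Ids call was lost without AT2-PBS replicate 2 (log2 change 0.58) or 3 (0.43) and without replicate 1 (0.45) or 3 (0.40) of AT2-BLM. Of the transporters Npc2 was at 778, 618 and 887 FPKM and then at 1128, 1132 and 1273 FPKM (1.56-fold, limma adjusted p = 0.0313), without overlap. The calcium channel Mcoln1 was at 19.8, 17.8 and 19.9 FPKM and then at 26.6, 27.4 and 32.2 FPKM (1.47-fold, limma adjusted p = 0.0267), a call lost without AT2-BLM replicate 3 (log2 change 0.48). Of the adaptor genes, which bend and coat transport vesicles, 6 of 23 were higher (Ap1m1, Ap1s1, Ap3m2, Ap3s1 and the clathrin light chains Clta and Cltb). That is 26.1%, near the 20.6% of all tested genes called higher. The Ap3m2 call was lost without AT2-PBS replicate 1 (log2 change 0.59) or 3 (0.34) and without replicate 2 (0.51) or 3 (0.53) of AT2-BLM, and that of Clta without AT2-PBS replicate 1 (0.46) and without replicate 1 (0.45) or 3 (0.47) of AT2-BLM.

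The 3 genes that fell belong to sorting, cholesterol export and sulfatide breakdown. Sort1 (sortilin) is a Golgi receptor that carries prosaposin and some hydrolases. Sort1 was at 8.54, 9.4 and 20.8 FPKM with PBS and at 4.2, 2.89 and 5.6 FPKM with BLM (2.53-fold lower, log2 change -1.34, SE 0.36, limma adjusted p = 0.0273). Its groups did not overlap, and AT2-PBS replicate 3 was the highest. Npc1, the membrane protein that takes cholesterol from Npc2, was at 18.9, 14 and 22.1 FPKM and then at 9.4, 7.23 and 14 FPKM, so the groups overlapped slightly (log2 change -0.81, SE 0.34, limma adjusted p = 0.12). The call was lost without AT2-PBS replicate 1 (-0.77) or 3 (-0.67) and, in AT2-BLM, without replicate 1 (-0.77) or 2 (-0.61). Arsa, arylsulfatase A, was at 7.16, 4.49 and 7.9 FPKM and then at 3.9, 3 and 4.13 FPKM (log2 change -0.66, limma adjusted p = 0.0872), also lost without AT2-PBS replicate 1 (-0.59) or 3 (-0.53) and without replicate 2 of AT2-BLM (-0.56). In the sorting group the phosphotransferase Gnptab, which starts the mannose 6-phosphate tag, was at 15.8, 10.1 and 10.5 FPKM with PBS and at 19.1, 22.8 and 15.8 FPKM with BLM (1.55-fold, limma adjusted p = 0.0626), a call lost without AT2-PBS replicate 2 (log2 change 0.53) and without replicate 2 of AT2-BLM (0.51). Nagpa, which uncovers the tag, was also higher, except without AT2-PBS replicate 2 (0.48) or replicate 1 of AT2-BLM (0.53), and neither receptor of the tag, M6pr and Igf2r, was called.

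Beside these rises, 8 of 12 leukocyte markers (1 after adjustment) and 7 of the 9 tested monocyte and interstitial macrophage markers (3 after adjustment) were higher with BLM. The alveolar macrophage list had 2 genes of 13 higher (Cd68 and Plet1) and 1 lower (Ear1). Higher were also 4 of 7 tested lymphocyte markers (1 after adjustment), but only 1 of 8 neutrophil and 1 of 7 tested fibroblast markers. Liver markers were higher in 8 of 10 cases (median log2 change 2.89, 1 after adjustment) and markers of type 1 alveolar cells in 5 of 8 (4 after adjustment). Of 6 tested airway markers 5 were lower (median -1.66, 4 after adjustment). Of 11 tested AT2 markers 3 were lower (1 after adjustment) and 1, Sftpb, was higher, also after adjustment. In AT2-PBS 4 of the 13 alveolar macrophage markers and 1 of the 12 leukocyte markers were at 0 in at least 1 sample. Ptprc, which encodes CD45, was at 0.621, 0.0119 and 0.0646 FPKM with PBS and at 0.946, 0.845 and 0.706 FPKM with BLM. The part of these markers in the lysosome result was not tested. Without the library with high Ins2 in AT2-PBS, the counts were again 39 higher and 3 lower. The number called higher depended on scaling, at 26 with median-ratio scaling and 21 with quantile normalization, which moved the median change of all genes from 0.17 to 0.03 and 0.00, and the lysosome median exceeded that of all genes by 0.20 as deposited, 0.18 with median-ratio scaling and 0.16 after quantile normalization.

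**Figure D2:**
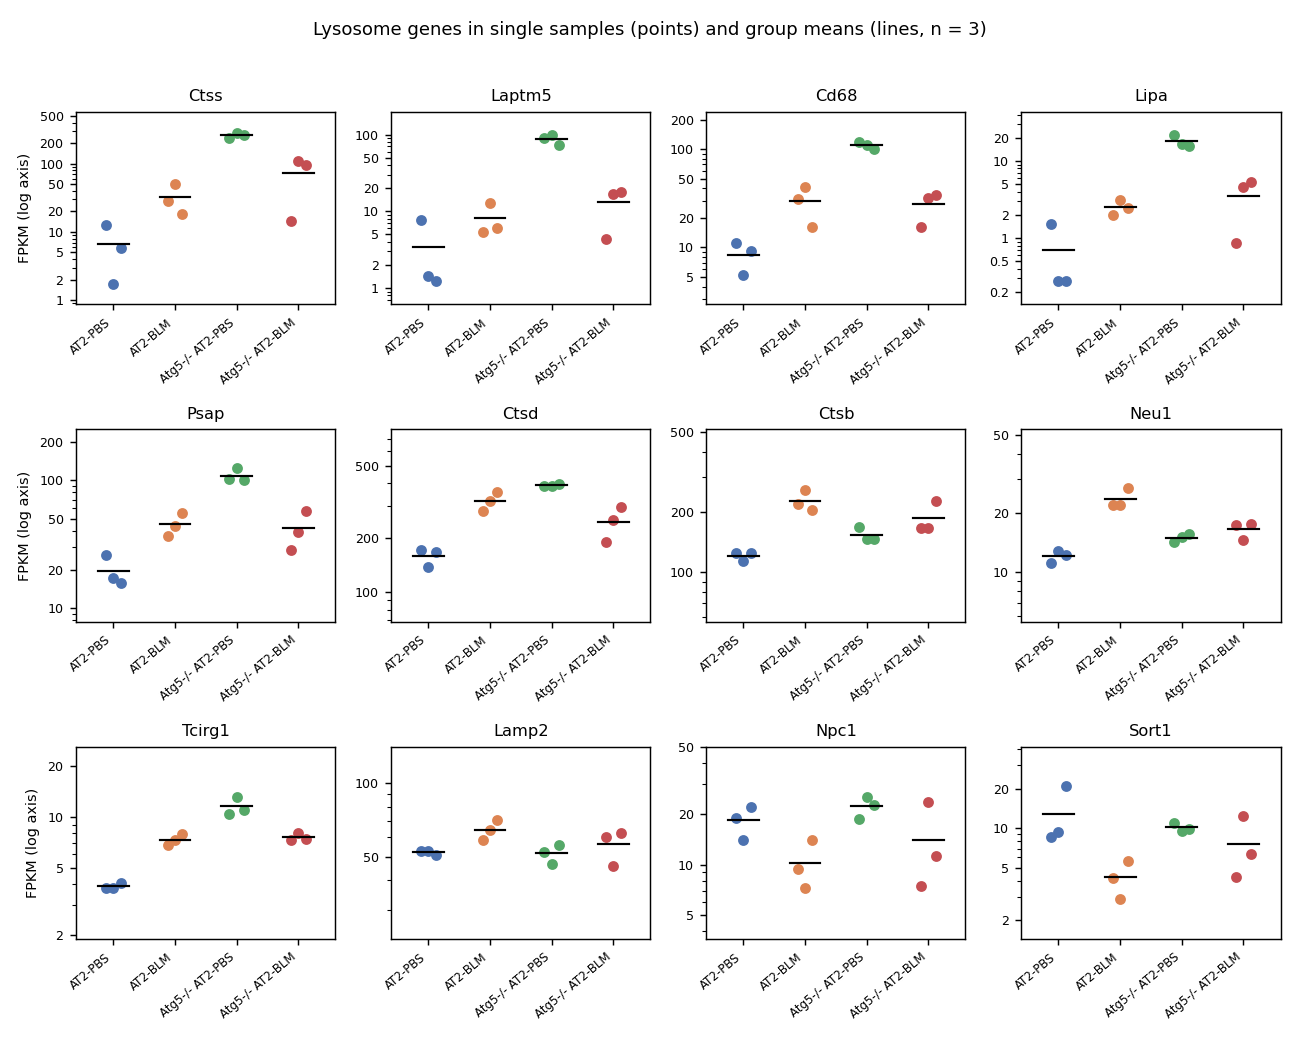
FPKM of 12 lysosome genes (logarithmic axis) are plotted for each sample in the 4 groups, with points for samples and lines for group means of 3. Ctss, Laptm5, Cd68, Lipa and Psap were highest in Atg5-/- AT2-PBS, whereas Neu1 was highest in AT2-BLM and Npc1 and Sort1 were lower in AT2-BLM than in AT2-PBS.

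Loss of Atg5 without injury was read from Atg5-/- AT2-PBS against AT2-PBS, which shares the AT2-PBS samples with the comparison above. Here 28 of 110 lysosome genes were called higher and 1 lower, against 14.1% and 5.16% of all tested genes. After adjustment 21 were higher and 0 lower, against 9.9% of all tested genes called higher. The median log2 change was 0.13 for the lysosome genes and 0.02 for all tested genes, while single genes had changes of up to 5.39. Quantile normalization gave 21 higher and 7 lower, with medians of -0.04 for the lysosome genes and -0.16 for all tested genes, so the sign of the lysosome median depended on scaling and its excess over all genes (0.11 as deposited, 0.12 after quantile normalization) did not.

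The lipid genes had the largest median log2 change of the roles, 1.13, with 6 of 8 higher, 5 after adjustment. The 6 and the median include Ppt2, which was tested only through its high group (below). No median without Ppt2 was computed. Lipa rose from 1.53, 0.277 and 0.28 FPKM to 21.4, 16.7 and 15.7 FPKM (11.7-fold, log2 change 3.55, SE 0.41, limma adjusted p = 0.000132). Psap reached 102, 124 and 99.3 FPKM (5.43-fold, log2 change 2.44, limma adjusted p = 7.53e-05), so every Atg5-/- sample was above every AT2-PBS sample by a wide margin. Pla2g15, the acidic phospholipase that degrades surfactant phospholipid in alveolar macrophages, went from 4.32, 3.16 and 3.65 FPKM to 15.4, 21.8 and 21.4 FPKM (4.33-fold, limma adjusted p = 5.72e-05). The GM2 activator Gm2a and the thioesterases Ppt1 and Ppt2 were the other 3. The Ppt1 call was lost without AT2-PBS replicate 2 (log2 change 0.57) or replicate 3 of Atg5-/- AT2-PBS (0.53). Ppt2 reached 1 FPKM in the 3 Atg5-/- AT2-PBS samples alone (1.81, 1.19 and 2.26 FPKM) and so was tested only through the group where it was high, which sets the sign of its calls, and these give no support. It was the 1 tested lysosome gene that passed the filter through a single group. Asah1 (51.7, 51.1 and 55.5 FPKM) and Smpd1, acid sphingomyelinase (76.8, 74.8 and 77.2 FPKM against 73, 85.1 and 99.9 FPKM), were not called.

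Proteases were higher in 8 of 13 cases, 6 after adjustment. Ctss reached 243, 287 and 263 FPKM, against at most 12.7 FPKM in AT2-PBS (41.8-fold, log2 change 5.39, SE 0.70, limma adjusted p = 0.000295). It had the largest change of the lysosome genes in this comparison. Ctsk, a collagenolytic protease best known from osteoclasts, was at 0.622, 0.225 and 0.435 FPKM with PBS in Atg5 f/f cells and at 12.8, 9.99 and 8.95 FPKM in Atg5-/- cells (log2 change 3.02, limma adjusted p = 0.000623). Ctsd, already abundant, was at 387, 383 and 396 FPKM, a narrow range that lay above all 3 AT2-PBS samples (2.46-fold, limma adjusted p = 0.000332). Ctsl was at 26, 18.2 and 24.8 FPKM and then at 31.7, 43.3 and 32.4 FPKM (1.54-fold, limma adjusted p = 0.215), and the call was lost in 5 of the 6 fits that left out 1 of these samples, which gave log2 changes down to 0.47. Ctsz was 1.43-fold higher, a call lost without AT2-PBS replicate 2 (log2 change 0.47) or Atg5-/- AT2-PBS replicate 1 (0.44). Ctsb was at 167, 146 and 147 FPKM, Lgmn at 53.8, 63 and 62.9 FPKM and Tpp1 at 44.9, 42.6 and 43.5 FPKM, and these were not called.

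Of the 10 membrane glycoproteins 3 were higher, all 3 after adjustment, with a median log2 change of 0.21 over the 10. Laptm5 reached 90.2, 97.8 and 73.8 FPKM against at most 7.72 FPKM in AT2-PBS (24.2-fold, log2 change 4.60, SE 0.55, limma adjusted p = 0.000164). Cd68 reached 119, 109 and 101 FPKM (12.1-fold, log2 change 3.60, limma adjusted p = 5.23e-05). Litaf, a late endosomal membrane protein induced by lipopolysaccharide, went from 41.1, 26.7 and 43.3 FPKM to 77.5, 70.6 and 67.3 FPKM (1.95-fold, limma adjusted p = 0.00433). Lamp2 was at 52.4, 46.7 and 55.5 FPKM, a range that held the 3 AT2-PBS samples, and Scarb2, a membrane protein that acts as a sorting receptor, was at 27.3, 27.6 and 25.1 FPKM against 24.5, 19.1 and 24.3 FPKM. Lamp1 was at 69.4, 61.7 and 47.3 FPKM (log2 change -1.16, 95% interval -2.70 to 0.39), and the change was -0.27 without AT2-PBS replicate 3. None of these 3 was called.

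The remaining rises were spread over the other roles. Atp6v0d2, a pump subunit of osteoclasts and macrophages, went from 0.761, 0.376 and 0.452 FPKM to 11.3, 9.64 and 13.1 FPKM (log2 change 3.01, SE 0.31, limma adjusted p = 6.01e-05). Tcirg1 went to 10.5, 13.1 and 11.1 FPKM (2.56-fold, limma adjusted p = 7.23e-05). The other 8 pump subunits were not called. Slc11a1, a metal ion transporter of phagosomes, rose from 0.445, 0 and 0.0277 FPKM to 5.71, 4.12 and 3.09 FPKM (log2 change 2.19, limma adjusted p = 0.000412), and Acp5 to 13.5, 11.9 and 13.2 FPKM (3.97-fold, limma adjusted p = 8.73e-05). Of 18 glycosidases 3 were higher (16.7%, near the 14.1% of all tested genes), Gla and Man2b1 among them. The Gla call was lost without replicate 2 of AT2-PBS (log2 change 0.43) or of Atg5-/- AT2-PBS (0.62). The Man2b1 call was lost without AT2-PBS replicate 1 (0.53), 2 (0.38) or 3 (0.56) and without replicate 1 (0.50) or 3 (0.34) of Atg5-/- AT2-PBS. Hexa, which degrades GM2 ganglioside, was at 61.1, 56.4 and 70.3 FPKM and then at 69, 67.6 and 94 FPKM and was not called.

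Marker genes of other cells were higher in the same samples. In this comparison 11 of 12 leukocyte, 13 of 13 alveolar macrophage, 9 of 9 tested monocyte, 8 of 8 neutrophil, 7 of 7 tested fibroblast and 10 of 10 liver markers were called higher, and none of the leukocyte or alveolar macrophage markers was at 0 in Atg5-/- AT2-PBS. Ptprc was at 8.46, 7.54 and 8.01 FPKM there. Summed neutrophil markers were 452 to 1701 FPKM against 14.2 to 113 in AT2-PBS, and summed fibroblast markers 114 to 116 FPKM against 5.77 to 14. Of the tested lymphocyte markers 6 of 7 and of the airway markers 4 of 6 were higher as well. Of the tested AT2 markers 5 of 11 were lower (Abca3, Cxcl15, Etv5, Lamp3 and Lpcat1, 3 of them after adjustment), 1 was higher (Sftpb) and the median log2 change was -0.38. The part of these markers in the lysosome changes was not tested. When the 3 libraries with high Ins2 were left out, which left 1 Atg5-/- AT2-PBS library that is then assumed to vary like the other groups, 21 lysosome genes were called higher and 1 lower.

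During BLM, loss of Atg5 was read from Atg5-/- AT2-BLM against AT2-BLM, which shares the AT2-BLM samples with the first comparison. No lysosome gene was called higher and 5 were called lower (Ap3m2, Ctso, Aga and Neu1 among them), against 2.04% and 3.12% of all tested genes. None of the 5 passed the adjustment. In the limma fit 12 of the 110 lysosome genes and 841 of all 10675 tested genes had an unadjusted p under 0.05. The median log2 change was -0.11 for the lysosome genes and -0.05 for all tested genes. Neu1 was at 22, 22.1 and 26.7 FPKM in Atg5 f/f cells and at 17.4, 14.6 and 17.7 FPKM without Atg5 (log2 change -0.49, SE 0.14, limma adjusted p = 0.607). Aga, which cleaves asparagine from glycans, was at 21.6, 23.8 and 27.2 FPKM and then at 13.8, 17 and 18.5 FPKM (log2 change -0.53, SE 0.15, limma adjusted p = 0.607). In both Neu1 and Aga the groups did not overlap. Ctso, a cysteine protease, was at 12.6, 15.4 and 13.3 FPKM and then at 9.29, 6.85 and 11 FPKM (log2 change -0.57, limma adjusted p = 0.607). The adaptor subunit Ap3m2 was at 1.69, 2.34 and 2.25 FPKM and then at 0.616, 1.07 and 1.34 FPKM (log2 change -0.64, limma adjusted p = 0.618). Each of the 5 calls was lost when a single library was left out. Without AT2-BLM replicate 3 the calls of Ap3m2 (-0.60), Aga (-0.45) and Neu1 (-0.40) were lost, and that of Ap3m2 (-0.58) was also lost without replicate 2. When replicate 1 of Atg5-/- AT2-BLM was left out, Ap3m2 (-0.49) and Aga (-0.42) were not called. When its replicate 2 was left out, Ctso (-0.40) and Neu1 (-0.40) were not. The genes with the widest changes in the other comparisons were not called here: Ctss was at 14.5, 109 and 95.2 FPKM in Atg5-/- AT2-BLM, Laptm5 at 4.42, 16.8 and 18.1 FPKM, Cd68 at 16.2, 31.7 and 34.3 FPKM and Psap at 28.7, 39.6 and 57.6 FPKM. In Ctss, Laptm5, Lipa and Ctsk the first of these 3 samples lay far below the other two.

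BLM against PBS in Atg5-/- cells shares samples with both comparisons of the genotypes. Called lower were 19 of 110 and higher 5, against 10.7% and 7.66% of all tested genes, and after adjustment 12 were lower and 1 was higher, against 6.25% of all tested genes called lower. The median log2 change was 0.07 for the lysosome genes and 0.06 for all tested genes. By role the falls were 5 of 13 proteases (Ctsd, Ctsf, Ctsk, Ctsl and Ctss), 5 of 8 lipid genes (Gm2a, Lipa, Pla2g15, Psap and Ppt2, the last tested only through its PBS group), 3 of 10 membrane glycoproteins (Cd68, Laptm5 and Litaf), 2 of 10 pump subunits (Atp6v0d2 and Tcirg1), 2 of 12 transporters (Npc1 and Slc11a1), the phosphatase Acp5 and the adaptor Ap1s2. None of the 18 glycosidases or 7 sulfatase genes was called. After quantile normalization 19 genes were called lower and 10 higher.

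Laptm5 dropped from 90.2, 97.8 and 73.8 FPKM with PBS to 4.42, 16.8 and 18.1 FPKM with BLM (7.15-fold lower, log2 change -2.84, SE 0.55, limma adjusted p = 0.00745). Atp6v0d2 went from 11.3, 9.64 and 13.1 FPKM to 0.475, 1.64 and 2.95 FPKM (4.94-fold lower, limma adjusted p = 0.000771). For Lipa the levels were 21.4, 16.7 and 15.7 FPKM and then 0.866, 4.54 and 5.29 FPKM (4.67-fold lower, limma adjusted p = 0.00528). In all 3 genes the highest BLM sample was below the lowest PBS sample. Ctsf, another cysteine protease, was at 11.7, 13.7 and 10.2 FPKM and then at 0.768, 1.91 and 4.33 FPKM (4.24-fold lower, limma adjusted p = 0.00214), and Cd68 was 4.08-fold lower (limma adjusted p = 0.00387). Ctss was 4.84-fold lower with wide spread between the BLM samples (log2 change -2.27, SE 0.70, limma adjusted p = 0.0689). Ctsd fell from 387, 383 and 396 FPKM to 188, 249 and 296 FPKM (1.62-fold lower, limma adjusted p = 0.0269), and Tcirg1 from 10.5, 13.1 and 11.1 FPKM to 7.34, 7.98 and 7.44 FPKM, a call lost without Atg5-/- AT2-PBS replicate 2 (log2 change -0.45). The calls of Ctsl and Npc1 were likewise lost without that library (-0.55 and -0.66). The Ctsl call was also lost without replicate 1 (-0.63) or 2 (-0.68) of Atg5-/- AT2-BLM, that of Npc1 without Atg5-/- AT2-PBS replicate 3 (-0.73) and without replicate 1 (-0.41) or 3 (-0.67) of Atg5-/- AT2-BLM, and that of Gm2a without replicate 2 of the latter (-0.45).

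The 5 that rose were Gnptab, Igf2r, Atp6v0a1, Npc2 and Tpp1. Gnptab went from 9.14, 9.27 and 10.7 FPKM to 21.6, 16 and 26.5 FPKM (2.05-fold, log2 change 1.04, SE 0.22, limma adjusted p = 0.0111), and was the only one to pass the adjustment. Igf2r, the larger receptor of the mannose 6-phosphate tag, was at 2.57, 1.98 and 2.43 FPKM and then at 3.75, 5.82 and 3.8 FPKM (1.62-fold, limma adjusted p = 0.0923). Both genes serve the same tag, and their groups did not overlap. The other 4 genes of tagging and sorting were not called, and the median log2 change of all 6 was 0.07, against 0.06 for all tested genes. Npc2 went from 769, 747 and 725 FPKM to 884, 1244 and 1222 FPKM (1.48-fold, limma adjusted p = 0.0796), Atp6v0a1 from 29.8, 26.3 and 33.8 FPKM to 46.6, 40.2 and 47.5 FPKM (1.48-fold, limma adjusted p = 0.0803), and Tpp1 from 44.9, 42.6 and 43.5 FPKM to 63.5, 50.7 and 75.7 FPKM (1.42-fold, limma adjusted p = 0.0522). The calls of Igf2r (log2 change 0.53) and Npc2 (0.48) were lost without Atg5-/- AT2-BLM replicate 2, that of Tpp1 (0.37) without Atg5-/- AT2-BLM replicate 3, and that of Atp6v0a1 (0.48) without Atg5-/- AT2-PBS replicate 2. Beside the falls, 11 of 12 leukocyte and 13 of 13 alveolar macrophage markers were lower with BLM in Atg5-/- cells. So were 6 of 6 tested airway (median log2 change -3.99), 7 of 8 neutrophil, 6 of 7 tested fibroblast, 7 of 10 liver and 3 of 9 tested monocyte markers. Of the tested AT2 markers 3 of 11 were higher, and of the type 1 alveolar markers 6 of 8. The part of these markers was not tested. Without the libraries with high Ins2, 3 lysosome genes were called higher and 14 lower.

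**Figure D3:**
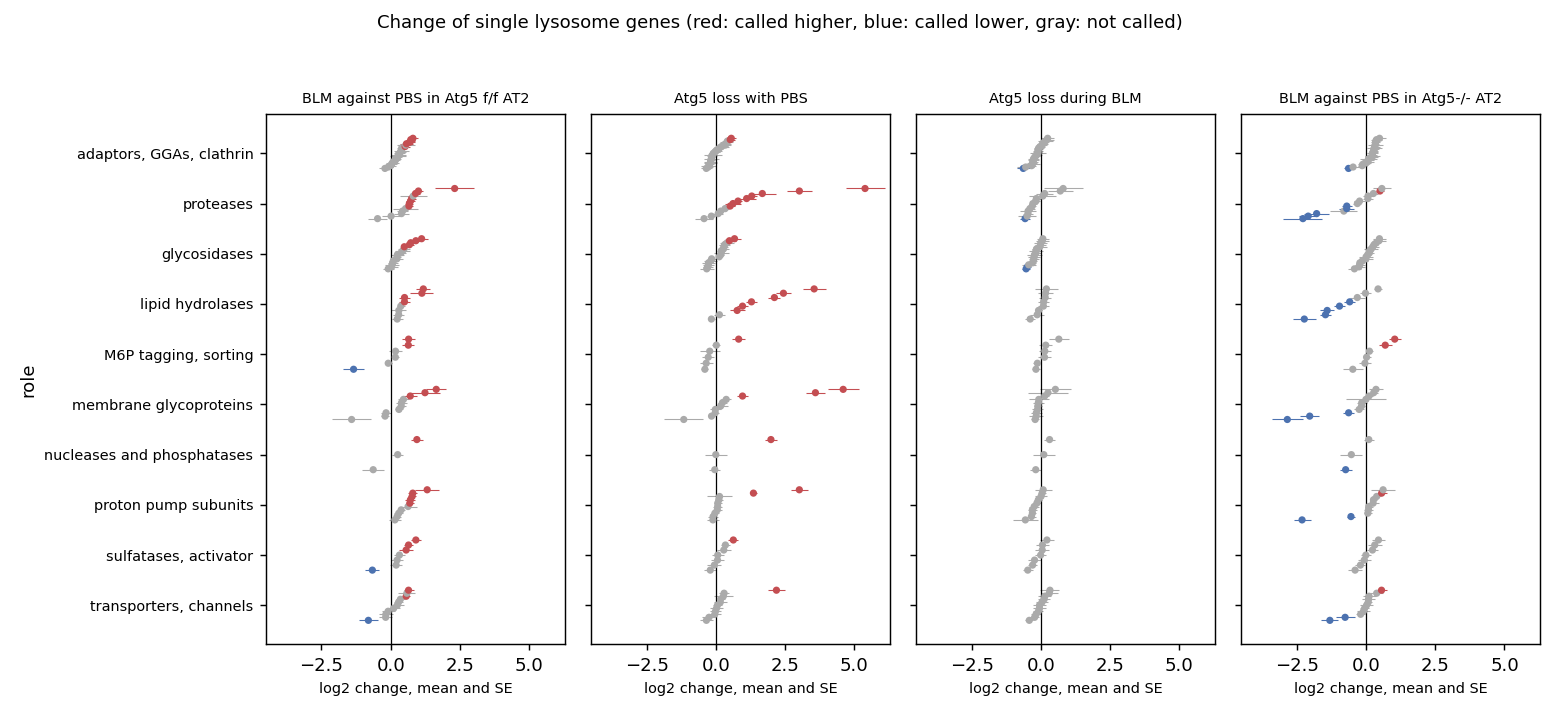
The log2 change of 107 of the 110 tested lysosome genes is plotted with its standard error by role for the first 4 comparisons, red for genes called higher, blue for genes called lower and gray for the rest. Called genes lie mostly above 0 for BLM in Atg5 f/f cells and for Atg5 loss with PBS, and mostly below 0 for BLM in Atg5-/- cells.

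The effect of BLM itself was compared between the genotypes by the difference of both changes (Atg5-/- minus Atg5 f/f), which uses all 4 groups. It was negative and called for 32 of 110 lysosome genes and positive and called for 0, against 15.2% and 5.02% of all tested genes. After adjustment 17 were lower, against 7.11% of all tested genes, and 0 were higher. In the limma fit 36 of the 110 lysosome genes and 2194 of all 10675 tested genes had an unadjusted p under 0.05. The median difference was -0.36 for the lysosome genes and -0.09 for all tested genes. Quantile normalization gave 23 negative and 3 positive calls, with medians of -0.13 and 0.14, so the sign of the median of all genes depended on scaling. Proteases differed in 11 of 13 cases, 4 of them after adjustment, with a median of -0.98. Lipid genes differed in 5 of 8 (4 after adjustment, Ppt2 included), glycosidases in 4 of 18 (1 after adjustment), and genes of mannose 6-phosphate tagging in 0 of 6. Among the proteases, the call of Ctse was lost in 6 and that of Ctso in 5 of the 12 fits that left out 1 library. The smallest of these differences was -1.07 for Ctse, without AT2-BLM replicate 3, and -0.49 for Ctso, without replicate 2 of Atg5-/- AT2-BLM. Ctss had the widest difference, rising 4.95-fold with BLM in Atg5 f/f cells and falling 4.84-fold in Atg5-/- cells (difference of log2 changes -4.58, SE 1.00, limma adjusted p = 0.0161). Next came Laptm5 (-4.07, SE 0.78, limma adjusted p = 0.00906), Cd68 (-3.67, SE 0.50, limma adjusted p = 0.00191) and Lipa (-3.35, SE 0.58, limma adjusted p = 0.00545). For these genes the group that stood out was Atg5-/- AT2-PBS, whose 3 samples were above all 9 others. Neu1 had another shape, with AT2-BLM above the other 3 groups, at 22, 22.1 and 26.7 FPKM against 17.7 FPKM or less (difference -0.78, SE 0.19, limma adjusted p = 0.0304). Ctsb (difference -0.63, limma adjusted p = 0.113) and Lgmn (-0.64, limma adjusted p = 0.149) were also highest in AT2-BLM by group mean, and the Lgmn call was lost without AT2-BLM replicate 3 (-0.46) and without the first replicate of Atg5-/- AT2-BLM (-0.56). Without the libraries with high Ins2, 26 genes were called lower and 0 higher.

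Of the 110 tested lysosome genes, 58 were called in at least 1 of these comparisons and 52 in none. The matching share of all tested genes was not computed, so these counts do not set lysosome genes apart. Among those never called were the membrane proteins Lamp1, Lamp2, Scarb2 and Laptm4b, the mannose 6-phosphate receptor M6pr, the pump subunit Atp6v0b, and the hydrolases Gaa, Hexa, Glb1, Ctsc and Smpd1. M6pr was at 81.5 to 99.4 FPKM in AT2-PBS, 101 to 109.6 in AT2-BLM, 90.5 to 96.2 in Atg5-/- AT2-PBS and 78 to 109 in Atg5-/- AT2-BLM. Gaa, the acid alpha-glucosidase that degrades glycogen, ranged from 65.9 to 80.1, 53.6 to 80.2, 59.1 to 64.5 and 54.1 to 94.1 FPKM in the same order. Glb1, the beta-galactosidase used as a senescence stain, ranged from 4.97 to 7.86, 7.7 to 10.2, 6.68 to 9.37 and 7.01 to 7.97 FPKM. Laptm4b ranged from 68.2 to 82.5, 58.6 to 69.7, 60.1 to 70.6 and 53.1 to 64.1 FPKM. A gene not called is not thereby shown to be unaffected at 3 samples a group.

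Genes of the lysosome outside the KEGG list were counted from fixed lists. Of 17 tested lysosomal proteins outside it, 8 were higher and 1 lower after BLM in Atg5 f/f cells. With Atg5 loss under PBS, 5 were higher and 0 lower. The shares of all tested genes, for all lists here, were 20.6% higher and 7.77% lower after BLM. They were 14.1% higher and 5.16% lower with Atg5 loss under PBS. Grn, progranulin, whose products act inside lysosomes, had log2 changes of 0.61 (limma adjusted p = 0.0364) and 0.84 (limma adjusted p = 0.00781) in these comparisons. Mpeg1, a pore-forming protein of macrophages, had 1.43 (limma adjusted p = 0.00135) and 2.38 (limma adjusted p = 2.81e-05). Among the 12 tested pump subunits outside the list, most of them cytosolic, 4 were higher and 1 lower after BLM in Atg5 f/f cells and none was called with Atg5 loss under PBS. The 14 tested regulators of lysosomal genes and nutrient signaling gave 4 higher (Lamtor1, Lamtor3, Rraga and Rragd) and 1 lower (Fnip2) after BLM, and 1 each with Atg5 loss under PBS. That one higher gene was Tfeb, the factor for which the promoter element is known, with a log2 change of 0.59 (SE 0.18, limma adjusted p = 0.0642). Of 16 tested genes for fusion and positioning of lysosomes, 1 was higher in each of these comparisons (6.25%) and none lower. The excluded Lamp3 had a log2 change of -0.66 with Atg5 loss under PBS (limma adjusted p = 0.128), opposite in sign to most called lysosome genes there, and Ctsh one of 0.81 after BLM in Atg5 f/f cells (limma adjusted p = 0.129).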

How the data were processed

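RNA of 12 samples (4 groups of 3) was analysed. The authors made stranded mRNA libraries, trimmed reads with Trimmomatic, aligned them to mm9 and ran Cufflinks, and the deposited values are its FPKM, scaled by transcript length and mapped fragments. The paper names STAR as aligner, whereas the submitters' processing notes name HISAT2, with Trimmomatic 0.36, Cufflinks 2.2.1 and HTSeq 0.9.1. The paper adds a normalization with DESeq, and whether the deposited FPKM include it is not given in the sources used here. No counts were used, so the depth is unknown and no counting interval is given. Groups and replicate numbers come from the sample titles, and for AT2-PBS replicate 3 the description carries another number.

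Log2(FPKM + 1) of the 10675 genes with at least 1 FPKM in at least 3 samples was modeled in R 4.3.3 by limma 3.58.1, using lmFit and eBayes with a trend, all 12 samples in 1 fit, with adjustment over all tested genes. The test was checked on simulated data. Pearson correlations of log2 values within groups were 0.938 to 0.987. Same-numbered samples of different groups did not deviate together (18 pairs, r from -0.295 to 0.227, 4 above 0.1), so the numbers were not taken to pair the samples.

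The lysosome genes, their roles and all lists were chosen with earlier results of these data known. The genes named are 32 fixed genes, in each comparison the 6 called genes with the largest rise and the 6 with the largest fall (all where 12 or fewer were called), the 5 with the highest mean FPKM and the untested ones. Pla2g15, Gm2a, Ppt1, Ppt2, Slc11a1, Acp5, Litaf, Ctsa, Gla, Galns, Naglu, Nagpa, Ap1m1, Ap1s1, Ap1s2, Ap3s1, Clta, Cltb, Ctse, Ids, Man2b1, Sumf1 and the genes outside KEGG's list were named after their values were seen. Alternatives were a pseudocount of 0.1, no filter, quantile normalization, median-ratio scaling, only the compared groups, no trend, adjusted p, a replicate block and each sample left out in turn. Leaving out the 3 libraries with Ins2 of at least 100 FPKM and a Y-linked covariate (Ddx3y of at least 1 FPKM) were chosen after seeing the data. Promoter windows of RefSeq (GRCm38.p6) were read by gene identifier, and gene positions come from GENCODE for mm9. Plots used Python 3.11.15 and matplotlib 3.10.9. Values of 3 tested lysosome genes are not reported here, and these genes remain in the counts and medians.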

Additional observations from a re-analysis of the deposited data

Results flagged for a closer look

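The effect of BLM differed between Atg5-/- and Atg5 f/f cells for 17 lysosome genes, by the test of the difference itself (limma, Benjamini-Hochberg adjusted p under 0.05 over all tested genes). All 17 differences were negative. Among all 10675 tested genes 759 (7.11%) were called negative and 83 positive after the same adjustment, so a negative sign was common among all genes. On the log2 scale they were -4.58 for Ctss, -4.07 for Laptm5, -3.67 for Cd68, -3.35 for Lipa, -2.93 for Atp6v0d2, -2.57 for Psap and -2.32 for Ctsk. The next were Pla2g15 at -1.96, Slc11a1 at -1.88, Ctsd at -1.69, Acp5 at -1.68 and Tcirg1 at -1.31. The rest were Ppt2 at -1.19, Galns at -1.11, Litaf at -1.08, Ctsa at -0.98 and Neu1 at -0.78. Ppt2 was tested only because it reached 1 FPKM in the 3 Atg5-/- AT2-PBS samples, a choice that fixes the sign of its difference, so it gives no support. Leukocyte, alveolar macrophage, fibroblast, airway and liver marker sums were highest in Atg5-/- AT2-PBS, 1 of the 4 groups that enter this difference. Their part in it was not tested. Groups of 3 samples are too small for the test of single outlying samples.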

How the results depend on the processing

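No called change of a lysosome gene reversed sign under the alternatives run, and 66 of 135 gene results (the called ones and, uncalled, Lamp1 with BLM in Atg5 f/f cells and with Atg5 loss under PBS and Lamp2 with BLM in Atg5 f/f cells) kept their side of the threshold under all of them. The counts kept within 1.5 times with a pseudocount of 0.1, without the filter, without the trend and in fits of only the compared groups. Quantile normalization gave 21 higher for BLM in Atg5 f/f cells, 7 lower for Atg5 loss with PBS, 1 lower for Atg5 loss during BLM, 10 higher for BLM in Atg5-/- cells and 3 higher for the difference between genotypes. Median-ratio scaling gave 3 lower for Atg5 loss during BLM, 3 higher for BLM in Atg5-/- cells and 26 higher for BLM in Atg5 f/f cells. With adjusted p the counts were 1 lower for BLM in Atg5 f/f cells, 0 lower for Atg5 loss with PBS and during BLM, 1 higher and 12 lower for BLM in Atg5-/- cells, and 17 lower for the difference. Leaving out the libraries with high Ins2 gave 3 higher for BLM in Atg5-/- cells. The Y-linked covariate gave 4 lower for Atg5 loss with PBS, 9 lower for Atg5 loss during BLM and 3 higher for the difference. The cause of these shifts was not tested. With each sample left out in turn, counts of genes higher and lower ran from 31 to 41 and 1 to 4 for BLM in Atg5 f/f cells, 25 to 27 and 0 to 1 for Atg5 loss with PBS, 0 to 4 and 2 to 11 for Atg5 loss during BLM, 4 to 11 and 16 to 20 for BLM in Atg5-/- cells, and 0 to 2 and 29 to 36 for the difference. Of the called genes 15 of 42, 7 of 29, 5 of 5, 8 of 24 and 5 of 32 lost their call without at least 1 sample. The replicate block gave 38 higher and 3 lower, 28 and 1, 0 and 5, 5 and 18, and 0 and 32 in the same order, and since same-numbered samples did not deviate together it is not read as a pairing. Depth is unknown, and genes near 1 FPKM are the least certain.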
